A study of Homo sapiens with 6 samples.

Results

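The genes for integrins and laminins were examined after knockdown of NUF2, a kinetochore component, by a short hairpin RNA in OVCAR3, a human cell line established from an ovarian carcinoma. The families were picked with earlier results of these data known, and every gene with a symbol of either family was taken, 38 of the 19973 genes listed, namely 26 integrin genes (18 alpha and 8 beta subunits) and 12 laminin genes (5 alpha, 4 beta and 3 gamma chains). The cells carried either shNC, a control hairpin, or shNUF2, and both groups were treated with puromycin to establish stable lines. RNA was sequenced in 3 libraries of each group, with 14115009 to 16995452 counted reads in the shNC libraries and 13057534 to 15227460 in the shNUF2 libraries. A single hairpin against NUF2 was sequenced, and neither the labels nor the methods say whether a line was 1 clone or whether the libraries of a group came from separate cultures, so that p-values measure the spread between these libraries, which may be technical. Libraries of a group differed by more than sampling noise, and all 6 were kept.

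NUF2 itself had a normalized count (CPM, the count scaled to a common library size) of 63.5, 68.6 and 63.5 with shNC and of 20.8, 22.3 and 25.5 with shNUF2. The groups did not overlap, and the log2 fold change was -1.51 (SE, standard error, 0.08). Of 9 epithelial and ovarian carcinoma markers, KRT8, KRT18 and MSLN had mean levels of 35.3 to 153 FPKM (reads scaled by gene length and library total) in either group. The mean level of the epithelial marker EPCAM was only 1.41 and 2.21 FPKM with shNC and shNUF2, that of PAX8 1.39 and 2.11, and that of MUC16 1.12 and 0.651. KRT8 and KRT18 rose (log2 fold changes 1.04 and 0.55, adjusted p under 0.05 as for each change named here), as did EPCAM and PAX8 (0.69 and 0.64), and MSLN and MUC16 fell (both -0.75). E-cadherin (CDH1) had 0.23 and 0.136 FPKM, and KRT19 and WT1 had too few reads to be tested. With these opposite changes, the summed level of the 9 markers was 237 to 252 FPKM in the shNC libraries and 238 to 250 in the shNUF2 libraries.

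Integrins are receptors of an alpha and a beta subunit that span the plasma membrane and tie the extracellular matrix to the actin or intermediate filament cytoskeleton. The alpha subunit largely sets the ligand, and many alpha subunits pair with ITGB1, whereas ITGAV pairs with several beta subunits and ITGB4 only with ITGA6. Laminins are secreted trimers of an alpha, a beta and a gamma chain that form the scaffold of basement membranes, and epithelial cells attach to them through integrins that contain ITGA3 or ITGA6. LAMA3 and LAMB3 are chains of the laminin beneath the hemidesmosomes of epithelia, while LAMA5 with LAMB1 or LAMB2 and LAMC1 is the laminin found most widely in epithelial basement membranes. In bulk RNA, fewer cells that express a gene and less RNA per cell cannot be told apart.

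Of the integrin genes tested 12 rose and 2 fell, and of the laminin genes tested 5 rose and 4 fell. Of the 38 genes, 31 had enough counts to be tested, which were 21 integrins and 10 laminins. A gene is said here to have risen or fallen when its p in the quasi-likelihood test of edgeR, adjusted by the method of Benjamini and Hochberg over all 12874 genes tested, was under 0.05. By this rule 17 of the 31 rose and 6 fell, beside 33.9% and 33.8% of all genes tested. As differentially expressed genes (DEGs), with the thresholds of the study's methods read on the log2 scale (a change of more than 1, and p under 0.05 without adjustment), 12 of the 31 were higher and 0 lower, beside 9.41% and 4.16% of all genes tested. The median log2 fold change of the 31 genes was 0.37, and that of all genes tested was -0.01. The passing genes had to reach a minimum count in 3 libraries, so that a gene expressed with shNUF2 alone could enter only by differing. ITGA10, ITGB6 and ITGB7, with 7 reads or fewer in each shNC library, passed this filter only through the shNUF2 libraries. They could be called only as higher, and they count among the 17 that rose and the 12 higher DEGs. There was no overlap between shNC and shNUF2 libraries for 25 of the 31 genes, of which 18 were higher and 7 lower with shNUF2, beside 35.2% and 35.4% of all genes tested.

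The DEGs included 8 integrins, ITGA1, ITGA5, ITGA10, ITGAX, ITGB3, ITGB6, ITGB7 and ITGB8, with the laminins LAMA1, LAMA4 and LAMB3 among the rest. Their levels differed widely. LAMB3 had a mean of 153 FPKM with shNC, ITGA5 of 93.6 and ITGA1 of 4.35, whereas each of the other 8 named here had between 0.0196 FPKM for ITGA10 and 1.9 FPKM for LAMA1. The plot of fold changes shows that the genes with the largest estimates among those plotted, ITGA10, ITGB7, ITGB6, ITGB3 and ITGAX, were all expressed at a low level with shNC, and the standard errors of ITGA10, ITGB7 and ITGB6 were the widest among the DEGs.

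**Figure D1:**
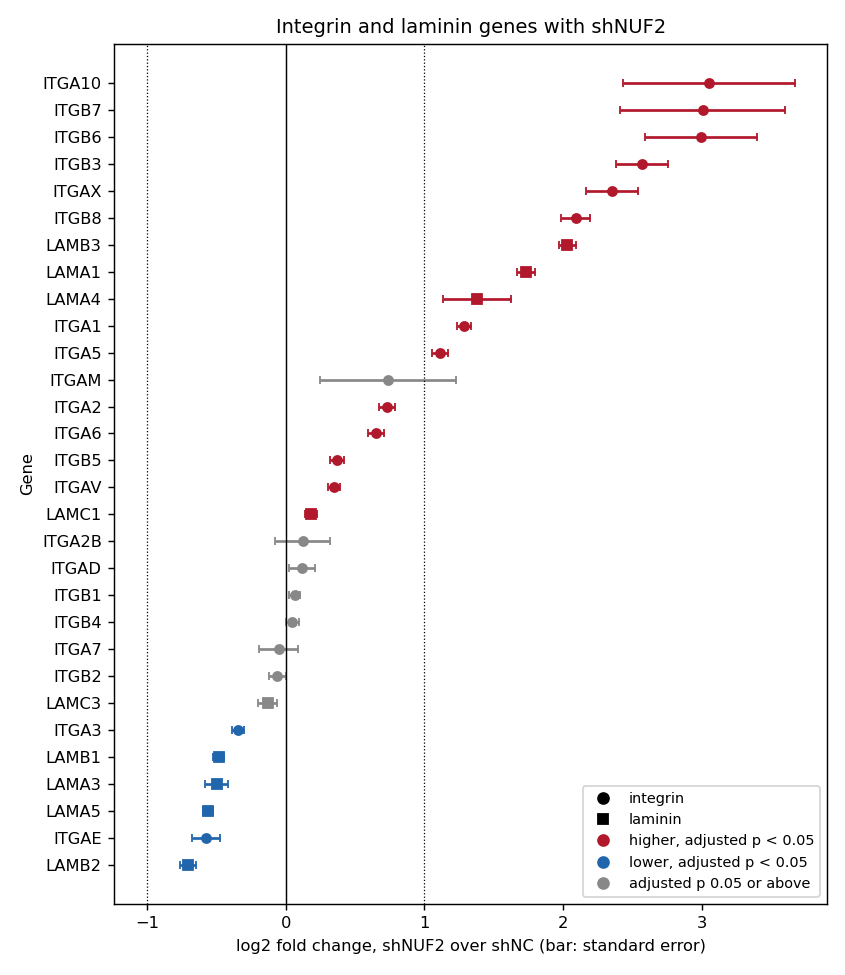
Log2 fold change of 30 of the integrin (circles) and laminin (squares) genes tested, shNUF2 over shNC, with its SE as a bar and dotted lines at -1 and 1. There are 11 genes beyond the line at 1, with ITGB7 at 3.01 and ITGB8 at 2.09, and 0 beyond the line at -1, with LAMB2 the lowest at -0.71.

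Among the laminins, LAMB3, the beta chain of the hemidesmosomal trimer, had the highest level of all members with shNUF2 and gained the most reads. LAMB3 (ENSG00000196878, GRCh38 chromosome 1 from 209614870 to 209652425) had 812, 631 and 671 CPM with shNC and 3042, 2760.4 and 2838 CPM with shNUF2. The lowest shNUF2 library was more than 3 times the highest shNC library. The mean was 705 ± 95.5 CPM with shNC and 2880.1 ± 146 with shNUF2 (SD, n = 3 each), 4.09 times as high. On the log2 scale the change was 2.03 (SE 0.06, adjusted p = 3.22e-20, edgeR). By mean FPKM over the 6 libraries, LAMB3 ranked 53 among the 19973 genes listed, and it made up 74.6% ± 2.24 of the summed beta chain FPKM with shNC and 94.8% ± 0.224 with shNUF2 (SD, n = 3). With exon lengths of GENCODE release 29 in place of the deposited lengths, which differ most for LAMB1, these shares were 63.8% ± 3 and 91.3% ± 0.385.

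LAMA3, the alpha chain that assembles with LAMB3, fell, with 61.3, 51.4 and 56.9 CPM with shNC and 44.2, 34.3 and 41.4 CPM with shNUF2. The log2 fold change was -0.50 (SE 0.08, adjusted p = 5.66e-06, edgeR), and the groups did not overlap. In FPKM, the ratio of LAMB3 to LAMA3 within a library was 41.3, 38.2 and 36.8 with shNC and 215, 251 and 214 with shNUF2. So the excess of LAMB3 over LAMA3 was wider with shNUF2, without overlap between groups.

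The chains of the widely found epithelial laminins fell by less than 2-fold or changed little. LAMA5 (chromosome 20 from 62307955 to 62367312) had 2886, 2770.2 and 2739 CPM with shNC and 1874, 1877 and 1949.98 CPM with shNUF2. Its groups did not overlap, and the log2 fold change was -0.56 (SE 0.04, adjusted p = 1.06e-12, edgeR). LAMB1 went from 475, 495 and 479 CPM to 340.2, 347 and 351 CPM, and the log2 fold change was -0.48 (SE 0.04). LAMB2 went from 187, 174 and 162 CPM to 114, 109 and 97.4 CPM, and the log2 fold change was -0.71 (SE 0.06). The adjusted p was 6.41e-11 for LAMB1 and 2.9e-11 for LAMB2 in the same edgeR test. LAMC1, the gamma chain that most laminins share, rose slightly, from 452, 451 and 456 CPM to 537, 501 and 505 CPM (log2 fold change 0.18, SE 0.04, adjusted p = 3.5e-04, edgeR). Alpha chains therefore summed to 204 ± 4.85 FPKM with shNC and to 141 ± 3.41 with shNUF2, beta chains to 205 ± 20.8 and 645 ± 25.4 (238 ± 19.9 and 663 ± 24.6 with GENCODE exon lengths), and gamma chains to 59.5 ± 0.491 and 65.5 ± 1.91 (SD, n = 3 libraries each).

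LAMA1 and LAMA4, alpha chains typical of embryonic and of vascular basement membranes, rose from low levels. LAMA1 had 27.7, 33.2 and 28.2 CPM with shNC and 98, 100.2 and 98.7 CPM with shNUF2. The groups lay far apart for its spread, with a log2 fold change of 1.73 (SE 0.07, adjusted p = 4.1e-18, edgeR). LAMA1 thereby went from 0.93% ± 0.108 to 4.38% ± 0.115 of the summed alpha chain FPKM (SD, n = 3), while LAMA5 made up 97% ± 0.031 and 93.3% ± 0.148. In GENCODE release 29, 10.3% of the exon bases of LAMA1 are shared with AP002409.1 on the opposite strand. LAMA4 was counted 22, 41 and 39 times in the shNC libraries and 59, 87 and 86 times in the shNUF2 libraries, a log2 fold change of 1.38 (SE 0.24, adjusted p = 1.86e-05, edgeR). LAMC3, found at 42.9 to 45.6 CPM with shNC and 39.7 to 41.8 CPM with shNUF2, did not pass the test although the groups did not overlap (log2 fold change -0.13, adjusted p = 0.099, edgeR). LAMA2 and LAMB4 had at most 9 and 2 reads in any library and were not tested.

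**Figure D2:**
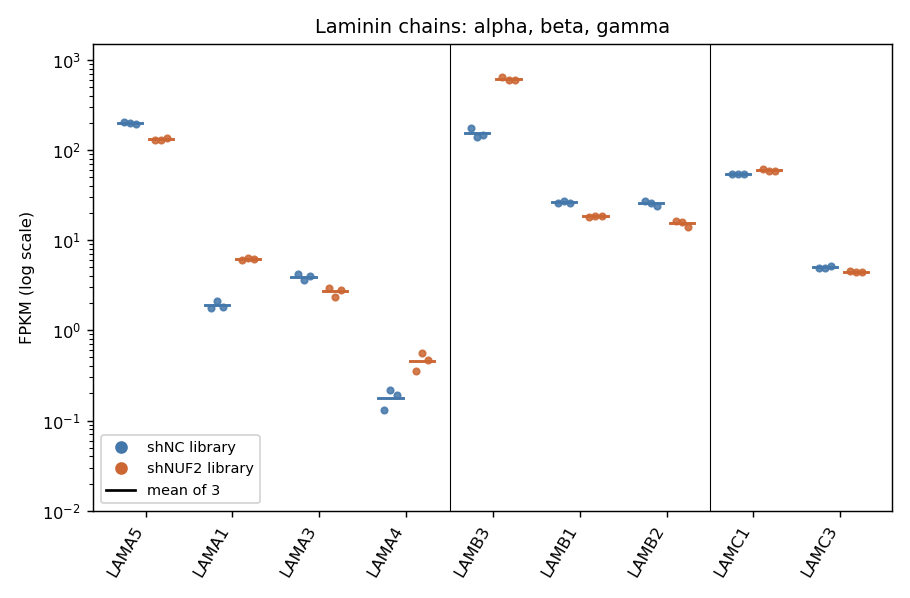
FPKM (log axis) of 9 laminin chains in each of the 3 shNC (blue) and 3 shNUF2 (orange) libraries, with lines at the group means, alpha chains on the left, beta in the middle and gamma on the right. LAMB3 stood at 138 to 176 FPKM with shNC and 591 to 640 with shNUF2, while its partner LAMA3 stayed between 2.36 and 4.26 FPKM in all libraries.

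The promoter windows of RefSeq (250 bases before to 50 after an annotated start, GRCh38.p14) were matched by symbol for 26 of the 38 genes, with 33 windows. They were searched on both strands for TGACTCA, the site of AP-1, the dimer of FOS and JUN proteins, because LAMB3 and LAMA3 are partners that moved in opposite directions. The site was found in 3 of the 33 windows (9.1%), against 4.9% of all 35116 windows, 1 each of LAMB3, LAMA3 and ITGA5. In LAMB3 it was only in the window of the innermost annotated start, and the other windows of LAMB3 lacked it. The stretches are printed on the strand of the gene, with the site or its reverse complement in capitals:
LAMB3, chr1:209651423-209651452: gtcagccactcTGACTCAttcactttgggc
LAMA3, chr18:23872884-23872913: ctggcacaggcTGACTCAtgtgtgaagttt
LAMA3, chr18:23872940-23872969: ccttcctcaccTGAGTCAggcaggcccggg
ITGA5, chr12:54419254-54419283: cctccccgcgtTGAGTCAttcgcctctggg
The sites begin 67 bases before the annotated start in LAMB3, 125 and 69 bases before it in LAMA3, and 6 bases before it in ITGA5. LAMB3 and ITGA5 rose and LAMA3 fell, and the part of AP-1 in these changes was not tested. These starts of LAMB3 and LAMA3 lie inside the genes as deposited, and the counts do not tell transcripts from different starts apart. A match of letters is not a bound site.

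Of the 8 integrin beta genes, all of which were tested, 5 rose and 0 fell, beside 33.9% and 33.8% of all genes tested. The 5 include ITGB6 and ITGB7, which passed the count filter only through the shNUF2 libraries. The abundant common partner ITGB1 had 1154, 1151 and 1093 CPM with shNC and 1213, 1160 and 1183 CPM with shNUF2. Its libraries did not overlap, but the difference did not pass the test (log2 fold change 0.07, SE 0.04, adjusted p = 0.15, edgeR). ITGB4, the hemidesmosomal beta subunit, overlapped between groups, with 415 to 486 CPM with shNC and 447 to 477 CPM with shNUF2 (log2 fold change 0.05, SE 0.05, adjusted p = 0.38, edgeR).

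ITGB3, ITGB5, ITGB6 and ITGB8, which pair with ITGAV, all rose, by very different factors. ITGB5, the most abundant of them, went from 119, 117 and 117 CPM to 156, 159 and 141 CPM, and the log2 fold change was 0.37 (SE 0.05, adjusted p = 2.96e-07, edgeR). ITGB8 (chromosome 7 from 20330702 to 20415754), which with ITGAV binds latent TGF-beta, had 7.67, 8.7 and 8.31 CPM with shNC and 37.2, 33.9 and 34.3 CPM with shNUF2. Libraries of a group were close to each other, with a log2 fold change of 2.09 (SE 0.1, adjusted p = 9.88e-16, edgeR). ITGB3, a vitronectin receptor subunit, was counted 59, 33 and 47 times in the shNC libraries and 255, 254 and 215 times in the shNUF2 libraries, and the log2 fold change was 2.57 (SE 0.19, adjusted p = 2.9e-12, edgeR). ITGB6, an epithelial subunit that with ITGAV also binds latent TGF-beta, was counted 7, 3 and 6 times in the shNC libraries and 44, 32 and 38 times in the shNUF2 libraries, and the log2 fold change was 2.99 (SE 0.4, adjusted p = 3.17e-07, edgeR). The groups did not overlap for any of these 4 genes. ITGAV itself (chromosome 2 from 186590056 to 186680901) rose from 144, 143 and 141 CPM to 187, 178 and 179.7 CPM, a log2 fold change of 0.35 (SE 0.04, adjusted p = 1.33e-07, edgeR).

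Within a library, the FPKM of ITGB5 was 1.03 to 1.05 times that of ITGAV with shNC and 0.99 to 1.13 times with shNUF2, so that this pair overlapped between groups. The ratio to ITGAV was higher with shNUF2 for the scarcer subunits, without overlap, going from 0.0313 ± 0.00213 to 0.105 ± 0.0025 for ITGB8, from 0.0271 ± 0.00949 to 0.126 ± 0.0202 for ITGB3 and from 0.00341 ± 0.0015 to 0.0215 ± 0.00287 for ITGB6 (SD, n = 3 libraries each). With shNUF2 these 3 subunits were still each below ITGB5 in every library. In GENCODE release 29, 51.6% of the exon bases of ITGB3 are shared with the read-through gene AC068234.1 on the same strand, which had 0 reads in all 6 libraries, and 20.6% of those of ITGB6 with AC092153.1, also on the same strand. How reads in shared exons were assigned is not given in the sources used here.

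ITGB7 and ITGB2 are beta subunits of leukocytes. ITGB7 was counted 6, 2 and 0 times in the shNC libraries and 16, 22 and 21 times in the shNUF2 libraries (log2 fold change 3.01, SE 0.59, adjusted p = 7.5e-05, edgeR). Without shNC replicate 1, which held 6 of the 8 shNC reads, the estimate was 4.38, and without shNC replicate 3 it was 2.38. Of the exon bases of ITGB7, 42.1% are shared with ZNF740 on the opposite strand, which fell (log2 fold change -0.70, adjusted p = 4.25e-12, edgeR). ITGB2 overlapped between groups, with 70.3 to 75.5 CPM and 63.9 to 73.4 CPM (log2 fold change -0.06, adjusted p = 0.39, edgeR).

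Of the 18 integrin alpha genes, 13 were tested, of which 7 rose and 2 fell, beside 33.9% and 33.8% of all genes tested. The 7 include ITGA10, which passed the count filter only through the shNUF2 libraries. ITGA5, the fibronectin receptor subunit (ENSG00000161638, chromosome 12 from 54395261 to 54419266), was the most abundant alpha subunit in both groups. It had 776, 624 and 648 CPM with shNC and 1568, 1410.2 and 1458 CPM with shNUF2, without overlap. The mean was 683 ± 81.7 CPM with shNC and 1479 ± 80.6 with shNUF2 (SD, n = 3 each), and the log2 fold change 1.12 (SE 0.06, adjusted p = 2.35e-15, edgeR). Its share of the summed alpha subunit FPKM was 40.7% ± 1.64 with shNC and 54.6% ± 0.852 with shNUF2 (SD, n = 3). In FPKM as deposited it stood at 1.07 to 1.33 times ITGB1 with shNC and at 2.4 to 2.55 times with shNUF2. This order rests on the deposited length of ITGB1, 14561 bases against 6011 exon bases in GENCODE release 29, and per GENCODE exon base ITGA5 stood at 0.43 to 0.534 times ITGB1 with shNC and at 0.965 to 1.03 times with shNUF2.

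The collagen receptor subunits ITGA1, ITGA2 and ITGA10 rose. ITGA1 (chromosome 5 from 52787916 to 52959209) had 82.3, 77.8 and 78.8 CPM with shNC and 196, 183 and 202 CPM with shNUF2, and the log2 fold change was 1.28 (SE 0.05, adjusted p = 6.81e-18, edgeR). Its neighbour ITGA2 (chromosome 5 from 52989340 to 53094779) had 319, 258 and 273 CPM with shNC and 486, 437 and 485 CPM with shNUF2, and the log2 fold change was 0.73 (SE 0.06, adjusted p = 1.69e-11, edgeR). Neither gene overlapped between groups. ITGA10 was counted 0, 3 and 3 times in the shNC libraries and 17, 14 and 15 times in the shNUF2 libraries, 8.75 times as many after scaling with a 95% exact binomial interval from 3.73 to 25.1 that covers counting error only (adjusted p = 1.02e-04, edgeR). ITGA11 had at most 9 reads in any library and was not tested.

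The laminin receptor subunits moved in opposite directions. ITGA3 fell from 523, 514 and 484 CPM to 400.5, 387 and 411 CPM, with a log2 fold change of -0.34 (SE 0.04, adjusted p = 8.52e-08, edgeR). ITGA6, the partner of ITGB4, rose from 94.4, 81.8 and 81.4 CPM to 142, 125 and 138 CPM, with a log2 fold change of 0.65 (SE 0.06, adjusted p = 1.65e-10, edgeR). The groups did not overlap for either gene. ITGA7 overlapped, with 9.64 to 14.3 CPM and 10.7 to 12.1 CPM (log2 fold change -0.05, adjusted p = 0.78, edgeR). With shNC, ITGA3 exceeded ITGA2 per length, at 50 to 53.8 against 33.2 to 40.7 FPKM, and with shNUF2 the order was the reverse, at 39.3 to 41.4 against 55.1 to 60.6 FPKM.

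**Figure D3:**
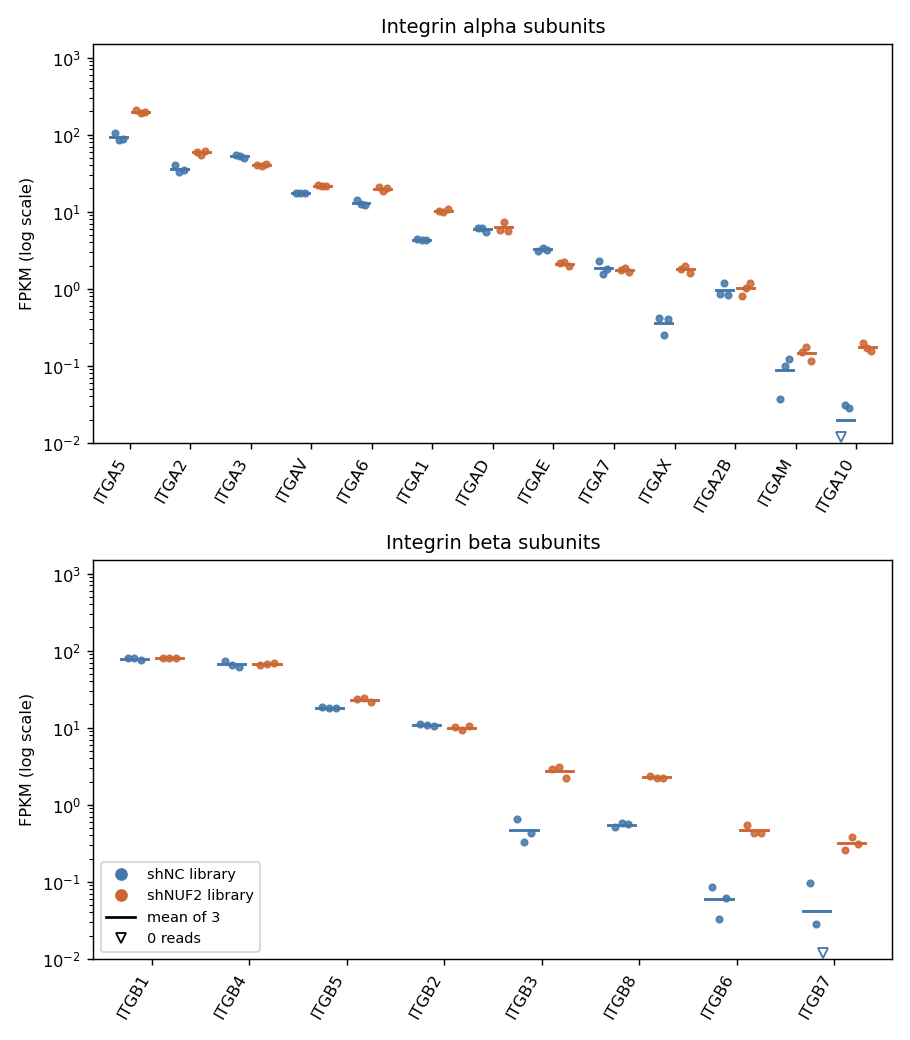
FPKM (log axis) of the 13 alpha (top) and 8 beta (bottom) integrin subunits tested in each shNC (blue) and shNUF2 (orange) library, with lines at the group means and open triangles at the lower edge for libraries with 0 reads. ITGA5 rose from 86 to 106 FPKM with shNC to 190.1 to 207 with shNUF2, while ITGB1 and ITGB4 stayed between 62.2 and 81.3 FPKM in all libraries. The FPKM values are as deposited.

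Of the alpha subunits of leukocytes, ITGAX rose from 42, 28 and 48 reads to 174, 182 and 172 reads, without overlap (log2 fold change 2.35, SE 0.19, adjusted p = 2.01e-11, edgeR). Its chromosome 16 neighbours ITGAD (log2 fold change 0.12, adjusted p = 0.28, edgeR) and ITGAM (0.74, adjusted p = 0.19, edgeR) did not pass the test, and these 3 genes are related in sequence, so that reads could be shared. ITGAE, which pairs with ITGB7, fell from 20.4, 22 and 20.9 CPM to 14.4, 14.9 and 13.4 CPM (log2 fold change -0.57, SE 0.1, adjusted p = 2.23e-05, edgeR). ITGAL had at most 10 reads in any library. The FPKM of ITGAX was 0.0236 to 0.0385 times that of its partner ITGB2 with shNC and 0.151 to 0.213 times with shNUF2.

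Of the markers of other cell types, COL1A1, a fibroblast marker, was at a mean of 9.19 FPKM with shNC and 6.84 with shNUF2, above EPCAM and PAX8, and made up most of the fibroblast sum. It fell (log2 fold change -0.39), while DCN, also a fibroblast marker, rose (log2 fold change 1.22) from a mean of 0.286 to 0.646 FPKM. The summed level of 6 leukocyte markers was 0.681 to 0.957 FPKM with shNC and 1.59 to 2.4 with shNUF2, with CD3E at 0 reads with shNC and PTPRC at a mean of 0.0023 and 0.0608 FPKM. That of 5 endothelial markers was 0.263 to 0.44 and 0.462 to 0.759 FPKM, of 6 fibroblast markers 9.44 to 10.1 and 7.36 to 8.23 FPKM and of 4 platelet markers 1.59 to 2.41 and 0.879 to 1.71 FPKM, with PF4 and GP9 at 0 reads in every library. Of the platelet markers, GP1BA, the only one with reads in the shNC libraries, fell from a mean of 1.92 to 0.987 FPKM (log2 fold change -0.91, adjusted p = 0.0019, edgeR), and PPBP, which was not tested, had 0 reads in each shNC library and 10, 2 and 5 with shNUF2. Among the endothelial markers, KDR was at 0 reads with shNC, PECAM1 did not pass the test (log2 fold change -0.02), and CDH5 rose from 1, 1 and 4 reads to 15, 19 and 27 reads (log2 fold change 3.45, adjusted p = 7.15e-06, edgeR). CDH5 passed the count filter only through the shNUF2 libraries and could be called only as higher. The part of the leukocyte markers in the changes of ITGAX and ITGB7, and of the endothelial markers in that of LAMA4, was not tested. The platelet integrin subunit ITGA2B overlapped between groups, with 4.71 to 6.57 and 4.75 to 6.92 CPM (log2 fold change 0.12, adjusted p = 0.59, edgeR). ITGA4, ITGA8 and ITGA9 had at most 1, 1 and 8 reads in any library and were not tested.

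**Figure D4:**
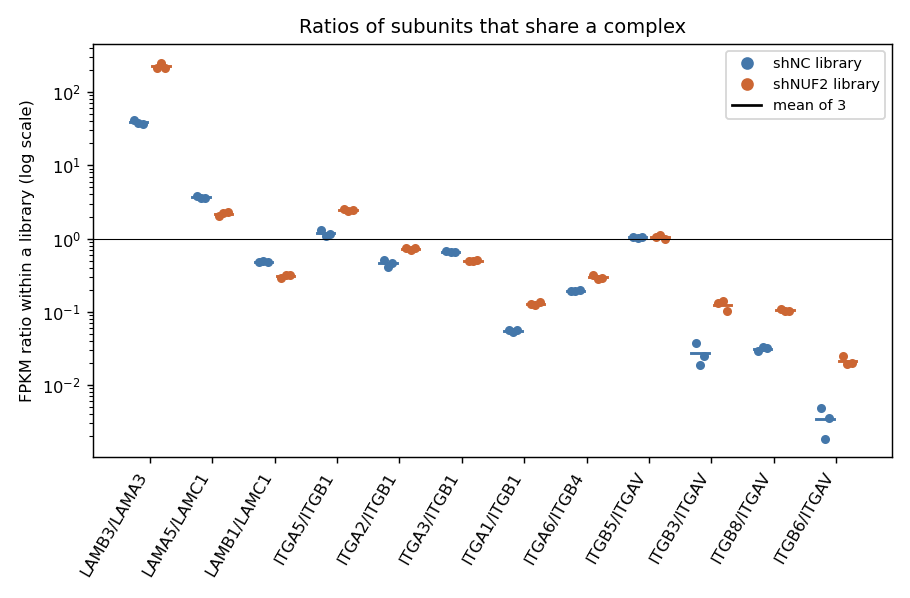
Ratio of the FPKM of pairs of subunits that share a complex, within each shNC (blue) and shNUF2 (orange) library on a log axis, with lines at the group means and at a ratio of 1. LAMB3 over LAMA3 stood at 36.8 to 41.3 with shNC and 214 to 251 with shNUF2, and ITGB5 over ITGAV at 0.99 to 1.13 in all libraries, with FPKM as deposited.

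Some members are neighbours on a chromosome. The log2 fold changes of ITGA1 and ITGA2 were 1.28 and 0.73, and those of ITGAX, ITGAM and ITGAD 2.35, 0.74 and 0.12. These differences between genes were not tested. Some neighbours in the order of deposited FPKM did not differ beyond their spread, but this order rests on the length used. ITGB3 and ITGB8 overlapped with shNC (0.331 to 0.659 and 0.51 to 0.584 FPKM) and with shNUF2 (2.23 to 3.07 and 2.22 to 2.4 FPKM). Per GENCODE exon base, ITGB3 with shNUF2 was at 3.21 to 4.43, above ITGB8 at 2.22 to 2.4, and the groups of values still overlapped with shNC. LAMB1 and LAMB2 overlapped with shNC, at 25.7 to 27.1 and 23.9 to 27.4 FPKM, but not with shNUF2, at 17.9 to 18.6 and 14 to 16.3 FPKM. The deposited length of LAMB1 is 18592 bases against 8140 exon bases in GENCODE, and per GENCODE exon base LAMB1 was above LAMB2 in both groups, at 58.8 to 61.9 against 23.9 to 27.4 with shNC and at 40.8 to 42.6 against 14 to 16.3 with shNUF2.

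For the counts in the lists that follow, the shares of all genes tested were 33.9% for genes that rose, 33.8% for genes that fell, 9.41% for higher DEGs and 4.16% for lower DEGs. Some genes of these lists that rose, KRT14, SPARC and TLL2, passed the count filter only through the shNUF2 libraries and could be called only as higher. Of 26 activators and adaptors, which link the beta tail to actin and to kinases, 24 were tested, 14 rose, 5 fell and 0 were DEGs, with a median log2 fold change of 0.49. Those with the smallest p were the kindlin FERMT2 at a log2 fold change of 0.71, talin (TLN1) at 0.60, the scaffold BCAR1 at 0.79 and paxillin (PXN) at 0.62, with a largest adjusted p of 1.25e-11 (edgeR). Of 7 hemidesmosome partners of ITGB4, 6 were tested, 5 rose and 1 fell (median 0.71), led by the linkers PLEC at 0.68 and DST at 0.74, then COL17A1 at 1.92 and the keratin KRT14, which was counted 2, 0 and 0 times in the shNC libraries and 12, 12 and 20 times in the shNUF2 libraries. COL17A1 and KRT14 were the 2 DEGs of the 6, at a mean of 0.141 and 0.0209 FPKM with shNC.

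Of 19 genes whose products lie with laminins in the basement membrane, 17 were tested, 6 rose and 10 fell, beside 33.9% and 33.8% of all genes tested, and 2 were higher and 2 lower as DEGs, beside 9.41% and 4.16% (median log2 fold change -0.32). Those with the smallest p were SMOC1 at -1.05, the collagen chains COL4A1 at 0.82 and COL7A1 at 0.68, and COL4A5 at -0.65. Of 8 receptors for laminin other than integrins, 7 were tested, 1 rose and 3 fell (median -0.06), namely SDC4 at 1.49, and dystroglycan (DAG1) at -0.64, MCAM at -0.54 and RPSA at -0.14. Of 8 genes for cleavage or folding of laminins, 5 rose and 2 fell (median 0.88), led by the chaperone HSP90B1 at 0.62, the proteases MMP14 at 1.14 and PLAU at 1.24, and TLL1 at -0.68.

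Of 25 genes for ligands of integrins other than laminins, 14 were tested, 10 rose and 2 fell, beside 33.9% and 33.8% of all genes tested, and 8 were higher and 1 lower as DEGs, beside 9.41% and 4.16% (median 1.12). The list was chosen with earlier results of these data known. Those with the smallest p were the matricellular CCN1 at a log2 fold change of 1.96, fibrillin (FBN1) at 1.38, TGFB1, whose latent form is a ligand of integrins with ITGB6 and ITGB8, at 1.30, and fibronectin (FN1), the ligand of ITGA5, at 1.06. The lower DEG was vitronectin (VTN) at -1.37. Of 9 collagen chains bound by collagen receptors, 6 were tested, 4 rose and 1 fell (median 0.80), led by COL6A1 at 1.13, COL6A2 at 1.86, COL5A1 at 0.47 and COL1A1 at -0.39.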

How the data were processed

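Transcript levels came from 6 OVCAR3 libraries made for RNA-seq with a strand-specific mRNA kit. Per the labels, reads were processed with cutadapt, HISAT and HTSeq on GRCh38.p13; versions and the strand and overlap settings are not given in the sources used here. The authors deposited read counts without normalization for 19973 genes, and FPKM values, which follow from the count, the gene length and the library total. The annotation release is not given in the sources used here; all 38 genes overlap their position in GENCODE release 29.

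The test was run in R 4.3.3 on the deposited counts with edgeR 4.0.16 (filterByExpr, TMM, quasi-likelihood test of shNUF2 against shNC, no covariate). The log2 fold change over the root of the F statistic gave the standard error. P-values were adjusted over all 12874 genes by the Benjamini-Hochberg method. DEGs changed by more than 1 on the log2 scale with p under 0.05 before adjustment. Limma 3.58.1 and DESeq2 1.42.0 served for alternatives. On simulated counts of 12874 genes with 200 changed by a log2 fold change of 2, edgeR recovered 200, with 8 unchanged genes called. The changed genes were drawn from genes with many reads, and the spread between simulated libraries was a set value. The simulation therefore says nothing on calls of genes with few reads, such as ITGA10, ITGB6 and ITGB7. An exact permutation test of 3 against 3 libraries cannot go below p = 0.1.

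The genes, gene lists, ratios and promoter motifs were chosen with earlier results of these data known. All genes meeting the symbol rule are accounted for in the counts, and results of some genes are not reported here; of each other list, the genes with the smallest p are named (up to 4), besides VTN and some markers, chosen after their values were seen. Sequences are from RefSeq.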

Additional observations from a re-analysis of the deposited data

How the results depend on the processing

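The 12 DEGs were the same genes with DESeq2 size factors, upper quartile scaling, library totals alone, DESeq2's Wald test, limma on log2 of FPKM plus 0.1, edgeR's TREAT test, the replicate block and each library left out, and with no filter ITGA9 and ITGA11, untested otherwise, joined them. In limma with 1 added to the FPKM before the logarithm, which understates changes of low genes, 5 integrins and 2 laminins passed as higher, and 430 genes in all were higher and 206 lower. Asking each of the 6 libraries to reach 1 CPM left 26 of the members and 5 integrins and 756 genes in all as higher DEGs, and TREAT left 329 genes in all lower. Leaving out 1 library turned the direction of 3 genes that had not passed: ITGA2B (-0.024 without shNUF2 replicate 3, up to 0.29), ITGA7 (0.11 without shNC replicate 1, down to -0.17) and ITGB4 (-0.0025 without shNC replicate 3, up to 0.11). ITGB4 passed only without shNC replicate 1 (0.11, adjusted p = 0.0227, edgeR), and LAMC3 only without a scaling factor (-0.17, adjusted p = 0.0357, edgeR).

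Same-numbered libraries did not deviate together (correlations of their deviations 0.02, 0.005 and -0.03), and 1 of 3 shNC libraries correlated best with its own number. With the replicate block, 8 integrins and 4 laminins were higher DEGs, and no call of an integrin or laminin gene changed. Over all genes, 1207 were higher DEGs with the block and 1212 without it. Depth limits ITGA10, ITGB6 and ITGB7, with 7 reads or fewer in each shNC library, and the 7 genes not tested. Exon lengths of GENCODE in place of the deposited lengths were an alternative chosen after seeing the data. They turned the order of ITGA5 and ITGB1 with shNC. They also ended the overlap of LAMB1 with LAMB2 with shNC, and of ITGB3 with ITGB8 with shNUF2. The mean ratio of LAMB1 to LAMC1 with shNC went from 0.484 to 1.1, and that of ITGA5 to ITGB1 with shNUF2 from 2.46 to 0.989. Comparisons of a gene between groups do not depend on length.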

Other observations

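In the 33 promoter windows of integrin and laminin genes, GGAATG, the core of the TEAD site, was found in 4 (12.1%), against 14% of all 35116 windows, GGGCGG, a GC box, in 19 (57.6%) against 45%, and TATAAA in 2 (6.1%) against 11.5%, on both strands. The windows with GGAATG belong to ITGA5 and ITGA10, which rose, ITGB1, which did not pass the test, and LAMA2, which was not tested.

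The 21-nucleotide target of shNUF2 matched NUF2 without mismatch. In 391 GENCODE release 29 transcripts of the 38 integrin and laminin genes the closest stretch had 6 mismatches, in transcripts of ITGA1, ITGA6, ITGA8, ITGB7 and LAMA2.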
